A study of Mus musculus with 3 samples.

Results

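The Schlafen genes are a mouse family named *Slfn*, and 4 of them were followed here across *Tet1* knockdown (KD) in ATDC5 cells: *Slfn2*, *Slfn8*, *Slfn9* and *Slfn10*. The authors deposited a shorter table of the probe sets they had selected, and every row of it whose gene name begins with Slfn was taken, which gave 4 probe sets, 1 per gene, of 1524 in that table, 1330 of them named, and of 35512 on the array. ATDC5 is a mouse chondroprogenitor line of teratoma origin that forms cartilage in culture. All cells were wild-type ATDC5 cells that received a lentiviral short hairpin RNA, were selected with puromycin as pools and then differentiated with insulin, transferrin and selenium up to day 15. One culture carried the nontarget (NT) hairpin and 2 carried different hairpins against *Tet1*, the gene of an enzyme that oxidizes methylated cytosine, and these are called hairpin 1 (Tet1sh1) and hairpin 2 (Tet1sh2). There was 1 array per hairpin, so NT has no replicate error, and the spread between the *Tet1* arrays mixes hairpin, culture and technical differences.

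Schlafen proteins share an N-terminal core that binds transfer RNA, and the longer members also carry a helicase-like domain. In mice the family is known from T cells and macrophages, where *Slfn2* keeps resting T cells and monocytes quiescent and protects transfer RNA from cleavage, and several members are induced by type I interferon. The human relative SLFN11 cleaves transfer RNA and blocks the synthesis of viral proteins. *Slfn8* and *Slfn9* encode long members. The probe set listed as *Slfn10* matches the gene now called *Slfn10-ps*, a pseudogene, and this match was through the older symbol, whereas the other 3 matched by transcript accession.

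RefSeq listed 10 Schlafen genes in the mouse, 9 of them side by side on chromosome 11 with no other protein-coding gene in between, in the order *Slfn5*, *Slfn9*, *Slfn8*, *Slfn10-ps*, *Slfn2*, *Slfn1*, *Slfn4*, *Slfn3* and *Slfn14*. The 4 genes with a named probe set are thus neighbours, from the second to the fifth position. The other 6 genes, *Slfn1*, *Slfn3*, *Slfn4*, *Slfn5*, *Slfn14* and *Slfnl1* on chromosome 4, had no named probe set and were not analysed here. Of the 20 protein-coding genes nearest to the cluster, 10 on each side, 0 were named in the table. With only 1330 named probe sets of 35512 on the array, this count does not show that the difference stops at the cluster.

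The promoters of 3 of the 4 genes are shown because they separate the copies that look alike from the one that does not, and because the family is known as an interferon target. These are the 250 bases before the outermost RefSeq start site in GRCm38.p6, written 5′ to 3′ on the gene's strand. *Slfn9* lies at chr11:82991831-82992080 on the minus strand, *Slfn8* at chr11:83020811-83021060 on the minus strand and *Slfn2* at chr11:83064862-83065111 on the plus strand. Capitals mark the core of the interferon-stimulated response element, which reads GAAA, then any 2 bases, then GAAA again, and was searched on both strands. It is the site that interferon regulatory factors recognize in many interferon targets.
Slfn9: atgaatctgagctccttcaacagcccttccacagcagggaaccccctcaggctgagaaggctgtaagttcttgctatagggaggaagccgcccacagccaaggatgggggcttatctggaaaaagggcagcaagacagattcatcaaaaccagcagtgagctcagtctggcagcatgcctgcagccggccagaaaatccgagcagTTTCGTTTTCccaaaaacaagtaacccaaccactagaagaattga
Slfn8: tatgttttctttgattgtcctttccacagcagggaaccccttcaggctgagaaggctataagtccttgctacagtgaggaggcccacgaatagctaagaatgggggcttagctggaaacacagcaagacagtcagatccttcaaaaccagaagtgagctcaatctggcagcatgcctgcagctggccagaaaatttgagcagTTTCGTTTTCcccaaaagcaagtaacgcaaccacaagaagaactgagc
Slfn2: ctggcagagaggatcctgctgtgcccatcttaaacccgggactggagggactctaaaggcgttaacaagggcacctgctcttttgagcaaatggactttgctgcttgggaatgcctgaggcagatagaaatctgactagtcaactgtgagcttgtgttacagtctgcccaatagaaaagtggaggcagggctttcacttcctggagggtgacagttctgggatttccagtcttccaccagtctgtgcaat

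*Slfn9* and *Slfn8* each held 1 core, with the same letters, GAAAACGAAA on the opposite strand, from 45 to 36 bases before the start in *Slfn9* and from 48 to 39 bases before it in *Slfn8*. RefSeq lists a second start of *Slfn8*, downstream, from which the same core is 136 to 127 bases away. The *Slfn2* window held no exact match to this pattern. Looser forms of the element were not searched, so its absence from *Slfn2* is not shown. Aligned over their whole length, the *Slfn9* and *Slfn8* stretches were 80.3% identical, with a longest shared run of 20 bases, whereas *Slfn2* aligned with *Slfn9* and *Slfn8* at 49.5% and 52.1% and shared no run longer than 8 bases. Of the 9 Schlafen genes with a promoter entry, 3 held the core in the window from 250 bases before to 50 bases after the start, and the third was *Slfn5*, where it lay 155 to 146 bases before the start and read GAAAAAGAAA. Over all 32851 promoter entries of this length 3.44% held the core, and by gene 3.99% of 27025. Of 32 type I interferon-stimulated genes with an entry, 15 held it (46.9%). Of 514 named non-Schlafen genes higher after *Tet1* KD 12.8% held the core, and of 344 lower 2.91%, without a test. The higher set includes the named interferon-stimulated genes with an entry, so it is not separate from them. The gamma-activated site, TTCNNNGAA, and the TATA box, TATAAA, were in no window of *Slfn2*, *Slfn8* or *Slfn9*, and in 8.30% and 13.6% of all entries. *Slfn4* was the single family member with TATAAA.

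**Figure D1:**
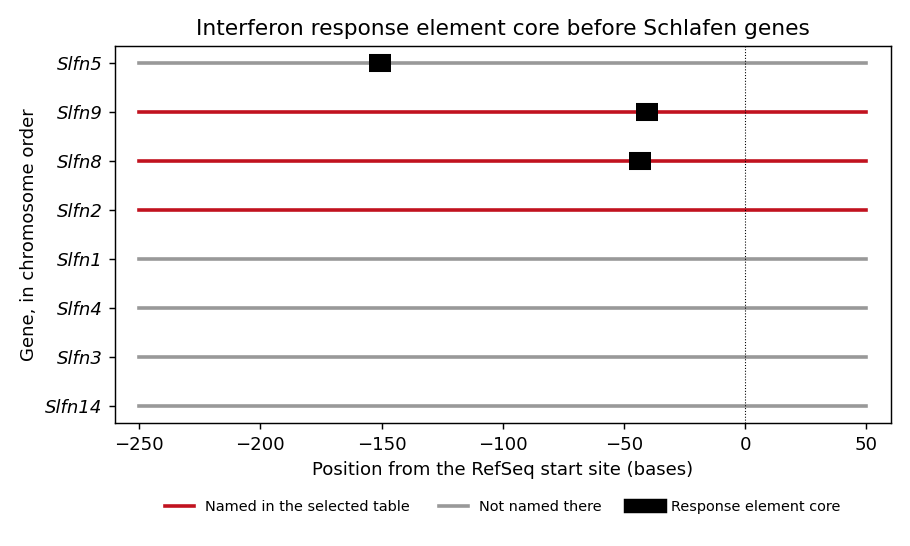
Promoter windows of the 8 Schlafen genes of the chromosome 11 cluster that have a RefSeq promoter entry, in chromosome order, with position in bases from the outermost start site on the x axis; black blocks mark the response element core on either strand, red lines genes named in the selected table and grey lines the others. The blocks of *Slfn9* and *Slfn8* lie within 48 bases of the start and that of *Slfn5* 155 bases before it.

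All 4 Schlafen probe sets were brighter under both *Tet1* hairpins than in NT. Intensities are the authors' model-based values on a linear scale, and the error of the NT value is the standard error (SE) that the authors' model gave for that array. *Slfn2* measured 56.1 ± 17.2 units (SE) in NT, 475 with hairpin 1 and 1108 with hairpin 2. *Slfn8* measured 42.8 ± 10.5 units (SE) in NT, 212 with hairpin 1 and 312 with hairpin 2. *Slfn2* and *Slfn8*, the gene of T cell quiescence and a long family member, were thus both dim in NT, and hairpin 2 gave the higher value of the *Tet1* arrays in each. *Slfn9*, the other long member, measured 196 ± 31.1 units (SE) in NT, 593 with hairpin 1 and 912 with hairpin 2. *Slfn10* measured 184 ± 18.9 units (SE) in NT, 544 with hairpin 1 and 555 with hairpin 2. In *Slfn9* the *Tet1* arrays again differed, with hairpin 2 higher, and in the pseudogene they lay close together. In bulk RNA, a change in the number of cells that express a gene and in its RNA per cell cannot be told apart, nor, without the probe sequences, can signal that the similar *Slfn8*, *Slfn9* and *Slfn10* copies may share.

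**Figure D2:**
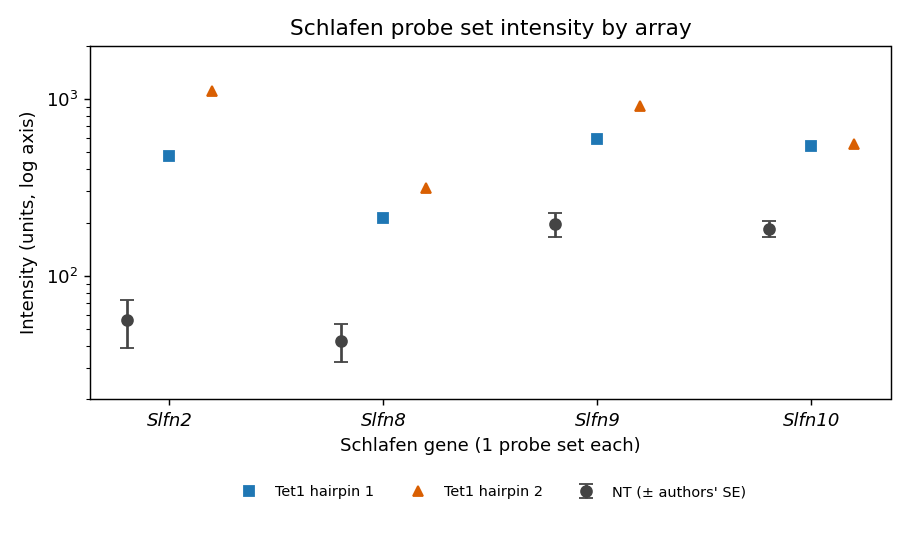
Intensity in units, on a log axis, of the 4 Schlafen probe sets in NT (circles, bars are the authors' SE), under hairpin 1 (squares) and under hairpin 2 (triangles), 1 array each. The NT values run from 42.8 to 196 units and the *Tet1* values from 212 to 1108 units, and hairpin 2 lies well above hairpin 1 in *Slfn2* and next to it in *Slfn10*.

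*Slfn2* was 8.48-fold and 19.8-fold higher under hairpins 1 and 2, with means of 792 ± 447 units (SD, n = 2) against 56.1 units. *Slfn8* was 4.96-fold and 7.30-fold higher, with a mean of 262 ± 70.6 units (SD, n = 2). *Slfn9* was 3.02-fold and 4.66-fold higher, with a mean of 752 ± 226 units (SD, n = 2). *Slfn10* was 2.95-fold and 3.02-fold higher, with a mean of 549.8 ± 7.90 units (SD, n = 2). The NT values of *Slfn2* and *Slfn8* were under 100 units, so their folds rest on a dim signal that was not tested against background. An NT value 1 SE higher or lower puts the *Slfn2* fold between 6.49 and 12.2 under hairpin 1 and between 15.1 and 28.5 under hairpin 2. For *Slfn10* the same shift gives 2.68 to 3.29 under hairpin 1 and 2.73 to 3.36 under hairpin 2. The NT error was 30.6% of the NT intensity for *Slfn2*, 24.4% for *Slfn8*, 15.9% for *Slfn9* and 10.3% for *Slfn10*, against a median of 3.01% over the selected probe sets and of 17.6% over the 54 of them under 100 units in NT.

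On the log2 scale, NT subtracted from the *Tet1* mean gave 3.69 ± 0.46 (SE) for *Slfn2*, 2.59 ± 0.44 (SE) for *Slfn8*, 1.91 ± 0.38 (SE) for *Slfn9* and 1.58 ± 0.36 (SE) for *Slfn10*. Here the SE is limma's, which takes the spread between the *Tet1* arrays, moderates it across probe sets and assumes that the NT array varies alike. The difference of *Slfn2* exceeded that of *Slfn9* by 1.79 ± 0.60 and that of *Slfn10* by 2.12 ± 0.59 on the log2 scale. *Slfn9* and *Slfn10* were 0.33 ± 0.52 apart, and *Slfn2* and *Slfn8* 1.10 ± 0.64. These errors combine both limma SEs as if the genes varied independently, though all were read on the same arrays, so they are only a rough guide. No test is given for these values, since the authors selected the table on this same contrast, with a lower bound of the fold above 1.5 and a difference of over 100 units. Of the 4, *Slfn8* had the smallest difference, 219.6 units, and *Slfn10* the smallest fold of the mean, 2.98. The authors' bounds were not used, so which member lay nearest to the limit of 1.5 is not shown. No Schlafen probe set outside the limits carried a name here. All 4 were at least 2.5-fold higher under each hairpin, as were 1.02% of the 35512 probe sets, and all 4 were past 2.5-fold and 100 units for the mean of both hairpins, as were 1.28%. Both shares stand beside members that were selected for this difference. The median of the 4 was 2.25 and that of the 27311 probe sets that averaged 100 units or more was -0.12. Among 709 named genes that were higher, *Slfn2* ranked 16, *Slfn8* 47, *Slfn9* 116 and *Slfn10* 182 by this log2 difference. With 32 units added before the log2, which dampens dim values, *Slfn8* went from 2.59 to 1.96 and *Slfn2* to 3.11, and the order of the 4 stayed the same.

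The Schlafen genes differed among themselves in how far apart the *Tet1* hairpins were. The selection did not use this contrast directly, but its lower bound of the fold may depend on the spread between the *Tet1* arrays. Hairpin 2 minus hairpin 1 was 1.22 on the log2 scale for *Slfn2*, 0.62 for *Slfn9*, 0.56 for *Slfn8* and 0.03 for *Slfn10*, which are ratios of 2.33, 1.54, 1.47 and 1.02. All 4 were higher under hairpin 2, as were 45.4% of the 27311 probe sets. With 1 array per hairpin no test of this difference was possible, so each value is set beside the probe sets whose mean log2 intensity lay within 0.5 of its own. That mean took in the NT array, so the *Tet1* values of all 4 lay above the level they were matched on. For *Slfn2* the central 95% of 5677 such probe sets ran from -0.93 to 1.07, so its value lay above that range, and 98.4% of them had a smaller value. For *Slfn9* the range was -0.95 to 0.91 and for *Slfn8* -0.88 to 1.46, with 93.2% and 86.1% of probe sets below, so both lay inside. *Slfn10*, with 62.6% below it, was near the middle of a range from -0.94 to 0.98. On its 3 probe sets *Tet1* itself was at 36.4% to 52.8% of NT under hairpin 1 and at 44.6% to 46.9% under hairpin 2, without passing limma (adjusted p from 0.133 to 0.186).

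**Figure D3:**
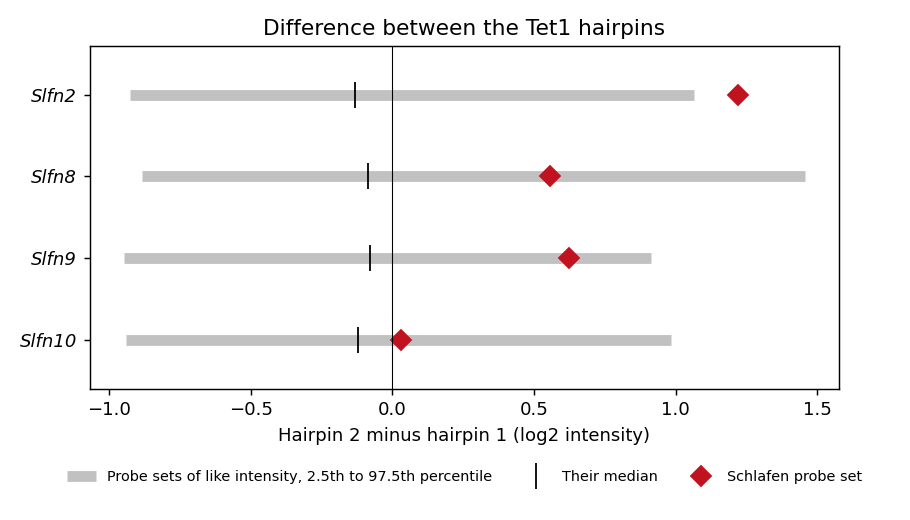
Log2 intensity under hairpin 2 minus hairpin 1 for each Schlafen probe set (diamonds), 1 array per hairpin, against the central 95% (grey bars) and median (ticks) of probe sets of like mean intensity. *Slfn2*, at 1.22, lies to the right of its bar, which ends at 1.07, and the other 3 lie on theirs.

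Schlafen genes are known interferon targets, so the type I interferon-stimulated genes were counted beside them, with the Schlafen genes left out. Of 44 genes on the list 42 were named, and 38 of these were higher past the limma test across 27311 probe sets and 0 lower, where 1.36% of all probe sets were called higher and 0.388% lower. That list came from a table selected on the same arrays and contrast, so its count is not independent evidence of direction. *Oas1g*, *Mx1* and *Sp100*, at 82.2, 94.5 and 78.4 units in NT, entered the fit through their *Tet1* arrays. In simulated arrays, unchanged probe sets took a larger share of limma's calls than the threshold of 0.05 allows, so the calls here and below are less certain than their adjusted p. Its median log2 difference was 2.04 under hairpin 1 and 2.01 under hairpin 2. *Oas1g*, an oligoadenylate synthetase, had the largest difference, 5.25 ± 0.32 (limma SE), on its dim NT value. *Ifitm3*, which blocks viral entry, had the smallest, 0.73 ± 0.17 (SE, limma adjusted p = 0.0446). Larger differences than that of *Slfn2* were found in 4 of the 42 genes, than that of *Slfn8* in 15, than that of *Slfn9* in 22 and than that of *Slfn10* in 27. Between the hairpins 26 of the 42 were higher under hairpin 2, with a median difference of 0.08 and a highest of 0.91, so the 1.22 of *Slfn2* was above each of them, and 5 of the 42 exceeded *Slfn9* and 5 *Slfn8*. The limma count of 38 fell to 19 without the intensity trend and to 0 when dim probe sets were kept (that fit gave 2229 probe sets an unadjusted p under 0.05).

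**Figure D4:**
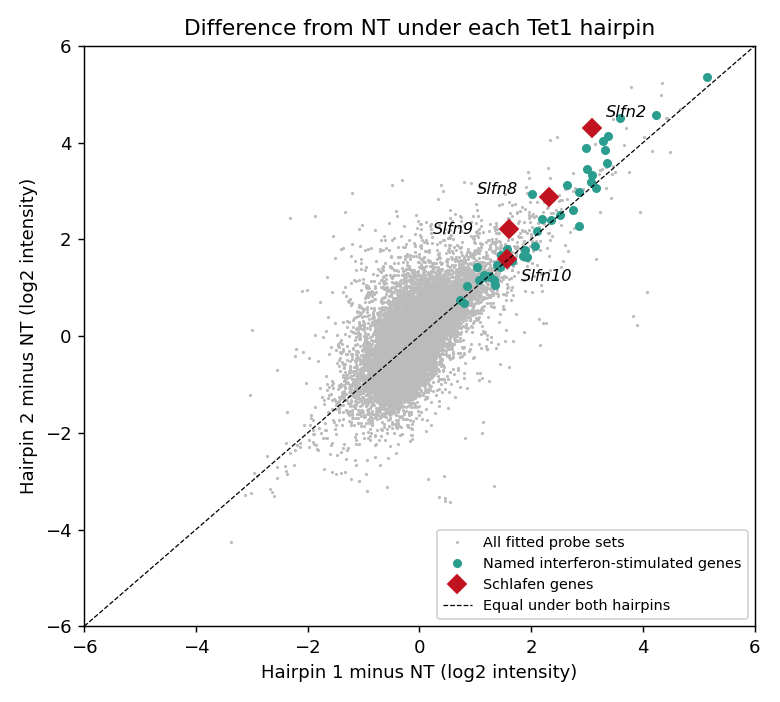
Log2 difference from NT under hairpin 1 (x axis) and hairpin 2 (y axis) for 27311 probe sets (grey), the 42 named interferon-stimulated genes (green) and the 4 Schlafen genes (red diamonds); the dashed line marks equal differences. *Slfn2* lies at 3.08 and 4.30, above the line, and *Slfn10* at 1.56 and 1.59, on it; both axes share the NT array.

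For each Schlafen gene the 3 other named genes nearest in their pair of log2 differences, hairpin 1 minus NT and hairpin 2 minus NT, were looked up, by Euclidean distance over the 3 arrays. *Ddx60*, a helicase linked to RNA sensing, was nearest to *Slfn2*, at a distance of 0.12, and measured 89.9 units in NT against 792 and 1645 units under hairpins 1 and 2. *Oas2* and *Mx1*, an oligoadenylate synthetase and an antiviral GTPase, followed at 0.33 and 0.34. Nearest to *Slfn8* was *Chrm3*, a muscarinic receptor, at 0.03, and then *Zfpm2*, a cofactor of GATA factors, at 0.20 and *Ifi44l* (listed as H28) at 0.21. *Gm1966*, *Gm904* and *Spsb1* were nearest to *Slfn9*, at 0.11, 0.11 and 0.19. *Parp9*, *Slamf8* and *Zc3h12a*, an RNase that degrades inflammatory mRNA, were nearest to *Slfn10*, at 0.03, 0.03 and 0.05. The neighbours of *Slfn2* beyond the nearest were thus farther off than any of the 3 listed for the other Schlafen genes. Such distances also depend on how many genes have differences of that size, and *Slfn2* ranked 16 among the 709 named genes that were higher.

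Genes that act on interferon signalling or on transfer RNA, and genes of proliferation, which quiescence factors restrain, were counted in the same way, and here too each named gene had been selected on this contrast. Of 18 ligands, receptors and signalling factors of interferon 6 were named, all higher, and 3 passed limma, against 1.36% of all probe sets called higher: *Irf5* with a log2 difference of 2.19 ± 0.38 (SE), *Irf2* with 1.08 and *Irf1* with 0.98, while *Stat3* had the smallest at 0.75 (limma adjusted p = 0.133). Of 14 genes of transfer RNA cleavage and processing 2 were named, 1 higher and 1 lower, and 0 passed limma. The lower one, *Ang*, the ribonuclease angiogenin, differed by -1.01 on the log2 scale (limma adjusted p = 0.110). Of 30 cell cycle genes 15 were named, with log2 differences from -1.42 in *Prc1*, a spindle midzone protein, to -0.76 in *Cdk1*, the mitotic kinase, and 3 fell past limma, *Prc1*, the mitotic cyclin gene *Ccnb1* and *Ube2c*, which encodes a ubiquitin-conjugating enzyme of mitotic exit, against 0.388% of all probe sets called lower. The 16 quiescence factors had 0 named members.

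Cell type markers were counted among the same selected genes, against the same shares of 1.36% called higher and 0.388% called lower. Of 15 leukocyte markers 3 were named, 1 higher and 2 lower. *Cd68* measured 4424 units in NT, 1458 under hairpin 1 and 820 under hairpin 2, and *Lyz2* measured 488, 1974 and 1400 units. *Lyz2*, a lysozyme of myeloid cells, had a log2 difference of 1.77 and *Cd68*, a macrophage lysosomal protein, of -2.02. *Ptprc*, *Cd3e* and the other leukocyte markers were not analysed here. All cultures were of the ATDC5 line, and a link between these markers and the Schlafen values was not tested. Of 10 chondrocyte markers 5 were named and lower, 4 of them past limma, from -2.92 in *Acan* to -1.17 in *Col11a1*, and each measured 913 units or more in NT. Of 8 fibroblast markers 2 were named, and *Dpt*, with a log2 difference of 1.98, and *Pdgfra*, with 1.47, passed limma, as did *Fabp4* with -2.29, the 1 named of 4 adipocyte markers, and 0 endothelial, epithelial or muscle markers were named.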

How the data were processed

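Total RNA of ATDC5 cells was hybridized to Affymetrix Mouse Gene 1.0 ST arrays, 1 per hairpin. Per the labels and methods, dChip was used for normalization between arrays to invariant probes and for model-based summaries, so the deposited intensity values are linear and can be set side by side for a given probe set. A shift of most transcripts would be removed by that step. The labels name the mm9 build, and the files hold no coordinates. The table of 1524 selected probe sets holds gene names, intensities identical to those of all probe sets, the NT standard error, and the authors' fold changes and bounds, which were not used. Its header counts an array that was not analysed here. Probe sequences were not used, so signal shared between similar Schlafen copies could not be told apart.

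Intensities under 10 units were set to 10, log2 was taken, and the 27311 of 35512 probe sets averaging 100 units or more were fitted in limma 3.58.1 (R 4.3.3; lmFit, eBayes with intensity trend, 1 residual degree of freedom, two-sided, Benjamini-Hochberg, threshold 0.05). Tested on simulated data, the fit recovered the large folds put in, and its calls held a larger share of unchanged probe sets than the threshold allows in each simulated set. All 4 Schlafen probe sets passed this filter, *Slfn2* and *Slfn8* through their *Tet1* arrays, and received no test. The p-values rest on the spread between the *Tet1* arrays, moderated toward that of other probe sets of like intensity, and hold nothing of the spread of NT. A probe set's own spread counted for little. The limma SE was 0.46 for *Slfn2* and 0.36 for *Slfn10*, whose *Tet1* arrays lay 1.22 and 0.03 apart on the log2 scale. Promoters are from RefSeq (GRCm38.p6) and were aligned globally in Biopython 1.88 (match 2, mismatch -1, gap opening -3, extension -1). RefSeq gave current symbols for 1084 probe sets by accession, 112 by symbol and 75 by an older symbol; the other 59 kept the file's name. Of several probe sets of a gene, the brightest on average stood for it.

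The genes named are all Schlafen probe sets, the 3 nearest named genes of each, *Tet1* and the extremes of each list. A gene that this rule would name is not reported here. *Irf1*, *Irf2*, *Sp100*, *Ccnb1* and *Ube2c* were named after their values were seen. Members and lists were chosen with earlier results of these data known. Alternatives changed the floor, normalization, filter and trend, or left out each *Tet1* array.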

Additional observations from a re-analysis of the deposited data

How the results depend on the processing

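All 4 Schlafen probe sets were higher than NT under every alternative run, in the same order. They had been selected for this difference on the same arrays, so staying higher is not independent support. The filter and trend settings do not enter the log2 difference. Without either *Tet1* array the log2 difference ranged from 3.08 to 4.30 for *Slfn2*, from 2.31 to 2.87 for *Slfn8*, from 1.60 to 2.22 for *Slfn9* and from 1.56 to 1.59 for *Slfn10*, with no test, since 1 array a side is left. With log2(intensity + 32) *Slfn8* moved to 1.96 and *Slfn10* to 1.43, by more than the spread between the *Tet1* arrays. For *Slfn10*, where that spread is very small, quantile normalization gave 1.69 and median centring 1.74. Across these settings hairpin 2 minus hairpin 1 ranged from 1.17 to 1.30 for *Slfn2*, from 0.60 to 0.71 for *Slfn9*, from 0.49 to 0.64 for *Slfn8* and from 0.03 to 0.11 for *Slfn10*. Over the array, limma calls went from 372 higher and 106 lower to 188 and 34 after quantile normalization, to 316 and 37 after median centring, to 87 and 21 without the intensity trend, and to 0 and 0 when dim probe sets were kept (2229 with an unadjusted p under 0.05). Interferon-stimulated genes called went from 38 to 19 and 0 under the last pair of settings. At 1.5-fold the size criteria took in 1985 probe sets higher and 2111 lower, against 456 and 163 at 2.5-fold. The median log2 difference of the fitted probe sets went from -0.12 to -0.05 after quantile normalization and to 0.04 after centring. No paired analysis was possible, since there was 1 NT array and no label pairs it with a *Tet1* array. A choice among probe sets of a gene did not arise, with 1 per Schlafen gene. The dim NT signal of *Slfn2* and *Slfn8* limits the precision of their folds.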
